A study of Mus musculus with 6 samples.

Results

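The lower part of glycolysis, from triose phosphate isomerase to pyruvate kinase, was followed together with lactate dehydrogenase, a lactate carrier and the enzyme of the bisphosphoglycerate side branch in mouse erythroleukemia (MEL) cells. The 10 genes were Tpi1, Pgk1, Bpgm, Pgam1, Eno1, Pkm, Pklr, Ldha, Ldhb and Slc16a1, of 23896 genes with a symbol in the count files. They were taken by name, with earlier results of these data known, and for each gene 1 RefSeq transcript was chosen by the highest mean count over all 6 libraries. The changes of these genes are therefore given as a description of the chosen genes. MEL is an established leukemia cell line held at an early erythroblast stage, and in culture with dimethyl sulfoxide (DMSO) it takes up an erythroid program. Messenger RNA was sequenced from cells before induction (day 0) and after 2 and 4 days in 2% DMSO, with 2 replicate cultures per day and 6 libraries in all. All groups were the same line in the same medium, no untreated culture was sampled at days 2 or 4, and time in culture and DMSO therefore cannot be told apart. The series calls the cultures biological replicates, and the p-values measure the spread between these cultures.

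Tpi1, Pgk1, Pgam1, Eno1 and Pkm encode enzymes of the path from triose phosphates to pyruvate, with ATP made at the Pgk1 and Pkm steps. Gapdh, which acts between Tpi1 and Pgk1, was not among the chosen genes and was listed here with upper glycolysis. Lactate dehydrogenase, built of subunits from Ldha and Ldhb, turns pyruvate into lactate and returns NAD+, and Slc16a1 (MCT1) moves lactate across the plasma membrane. Red cells are known for a side branch in which Bpgm makes bisphosphoglycerate, a ligand that lowers the oxygen affinity of hemoglobin, and for the R form of pyruvate kinase, which is made from an erythroid start site of Pklr. Mature red cells have no mitochondria and depend on glycolysis for ATP.

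The libraries held 35294930 to 53899476 counts on transcripts. Of 10 erythroid markers, 9 lay above 10 CPM (counts per 1000000 counts of a library, scaled by TMM factors) in every library, and their summed level was 1170 to 1218 CPM at day 0, 4451 to 5277 CPM at day 2 and 17893 to 20083 CPM at day 4. The exception was Slc4a1, at 0.221 to 47.4 CPM. From day 0 to day 4, 9 of the 10 were called higher and Klf1 lower (log2 change -0.54, adjusted p = 0.0188). The 6 T and B cell markers summed to at most 0.172 CPM and 5 myeloid markers to at most 1.54 CPM. The 4 megakaryocyte markers, mostly Itga2b, summed to 268 to 271 CPM at day 0, 211 to 233 CPM at day 2 and 543 to 617 CPM at day 4. Itga2b and Gp9 were called higher at day 4 than at day 0, and Pf4 and Ppbp lower. The 6 fibroblast and epithelial markers summed to 4.80 to 5.48 CPM at day 0, 1.36 to 1.37 CPM at day 2 and 1.05 to 1.33 CPM at day 4, and all 4 that could be tested were lower at days 2 and 4 than at day 0. The part of these markers in the results was not tested.

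The genes lie on 7 chromosomes. Spans are those of the RefSeq gene on GRCm38, with the counted transcript and its exons in parentheses. Tpi1 (NM_009415, 7 exons) spans chr6:124810586-124814158, Bpgm (NM_007563, 3 exons) spans chr6:34476356-34505136 and Ldhb (NM_008492, 8 exons) spans chr6:142490249-142507957. Pgk1 (NM_008828, 11 exons) spans chrX:106187100-106203699, Pgam1 (NM_023418, 4 exons) spans chr19:41911871-41918665 and Eno1 (NM_023119, 12 exons) spans chr4:150236708-150248879. Pkm (NM_011099, 11 exons) spans chr9:59656576-59679372, Pklr (NM_013631, 11 exons) spans chr3:89136122-89146815, Ldha (NM_001136069, 8 exons) spans chr7:46842274-46855627 and Slc16a1 (NM_009196, 5 exons) spans chr3:104638664-104658462.

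RefSeq promoter windows (GRCm38.p6) were available for all 10 genes, 15 windows in all, and the 250 bases before each annotated start were searched on both strands. ACGTG, the core letters read by hypoxia-inducible factors, which regulate many glycolytic genes, lay in 5 of the 15 windows, those of Pgk1, Pgam1, Ldha, Pkm and Slc16a1, and in 16.6% of 32851 mouse windows of the same length. CACGTG, the E-box letters, which contain ACGTG, lay in windows of Ldha and Slc16a1 and in 6.02% of all windows. AGATAA, letters read by GATA factors, lay in the window before the R start of Pklr and in 9.99% of all windows. TGATAA lay in windows of Pkm and Slc16a1 (7.94% of all windows), CCACACCC in none of the 15 (3.20%), and the GC box GGGCGG in 8 (32.7%). Windows are shown for 3 of the genes that fell steeply by day 2 (Pgk1, Pgam1, Ldha), all 3 holding ACGTG. They are also shown for 2 that fell mostly after day 2 (Slc16a1, Pklr). Not shown are the windows of the other genes with a steep fall: Pkm, and Tpi1 and Eno1, which hold no ACGTG. Sequences read 5′ to 3′, with the E-box, hypoxia-factor and GATA letters in capitals as they read on either strand. The Ldha window and the end of the Pklr window lie within the RefSeq gene spans given above. All 5 windows are on the plus strand: Pgk1 chrX:106186850-106187099, Pgam1 chr19:41911621-41911870, Ldha chr7:46845554-46845803, Slc16a1 chr3:104638414-104638663 and Pklr chr3:89135892-89136141.
Pgk1: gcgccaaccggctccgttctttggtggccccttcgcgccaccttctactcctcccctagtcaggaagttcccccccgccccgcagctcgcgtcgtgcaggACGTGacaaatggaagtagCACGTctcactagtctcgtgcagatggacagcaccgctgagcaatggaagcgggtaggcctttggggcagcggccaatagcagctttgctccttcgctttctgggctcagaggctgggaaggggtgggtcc
Pgam1: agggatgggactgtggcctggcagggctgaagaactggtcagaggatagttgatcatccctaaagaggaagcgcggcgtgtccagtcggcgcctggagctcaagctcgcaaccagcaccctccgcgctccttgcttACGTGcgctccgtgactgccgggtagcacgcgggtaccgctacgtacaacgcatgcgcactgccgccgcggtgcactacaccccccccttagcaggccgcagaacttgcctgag
Ldha: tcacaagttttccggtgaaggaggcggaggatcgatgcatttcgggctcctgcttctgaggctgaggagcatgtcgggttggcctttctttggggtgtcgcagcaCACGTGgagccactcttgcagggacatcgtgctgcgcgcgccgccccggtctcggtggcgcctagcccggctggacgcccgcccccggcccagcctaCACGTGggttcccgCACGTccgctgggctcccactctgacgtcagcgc
Slc16a1: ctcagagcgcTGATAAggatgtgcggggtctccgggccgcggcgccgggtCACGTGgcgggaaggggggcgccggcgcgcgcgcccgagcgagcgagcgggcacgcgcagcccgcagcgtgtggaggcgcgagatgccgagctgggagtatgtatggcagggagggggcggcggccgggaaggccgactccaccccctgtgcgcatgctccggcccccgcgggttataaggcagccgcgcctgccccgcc
Pklr: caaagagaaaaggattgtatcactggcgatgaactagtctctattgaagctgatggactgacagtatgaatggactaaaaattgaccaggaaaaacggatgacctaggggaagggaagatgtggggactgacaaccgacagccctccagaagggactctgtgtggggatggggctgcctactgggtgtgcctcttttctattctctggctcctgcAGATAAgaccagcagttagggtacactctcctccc
In the Pgk1 window the 2 ACGTG matches begin 150 and 131 bases before the start, and the single match of Pgam1 begins 114 bases before it. The Ldha window lies before a start 1278 bases upstream of that of the counted transcript, whose own window holds none of these letters. Taking for each gene the window nearest to the counted transcript, 3 of the 10 held ACGTG. The AGATAA of Pklr begins 35 bases before the start of the R transcript. A match describes letters in a window and no binding was measured.

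Between day 0 and day 2, 8 of the 9 genes with counts fell and Bpgm rose (edgeR quasi-likelihood test, adjusted p below 0.05). Of 12381 genes tested, 31.5% were called lower and 31.0% higher in this comparison. Of the 8, 6 fell by at least 1 on the log2 scale, a size that 11.9% of tested genes reached. The median log2 change of the 9 was -2.60, and that of all tested genes was 0.01. Ldhb had no counts and was not tested, while the other 9 had at least 527 counts in every library. The libraries of days 0 and 2 did not overlap for any of the 9 (39.7% of tested genes were lower and 40.8% higher without overlap). Between day 0 and day 4 the same 8 genes were called lower and Bpgm higher, against 36.4% and 35.5% of tested genes, and all 8 had log2 changes of at least 1 in size (18.8% of tested genes were lower by that much). Again no library of the 2 days overlapped (42.4% of tested genes lower and 42.3% higher). The chosen transcripts of the 9 genes together held 0.372% and 0.447% of all transcript counts at day 0. These shares were 0.0761% and 0.0749% at day 2, and 0.0608% and 0.0554% at day 4. They leave out the other transcripts of Pkm, Ldha and Pklr, and a read can count for several transcripts. In bulk RNA, fewer cells of a type and less RNA per cell cannot be told apart.

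**Figure D1:**
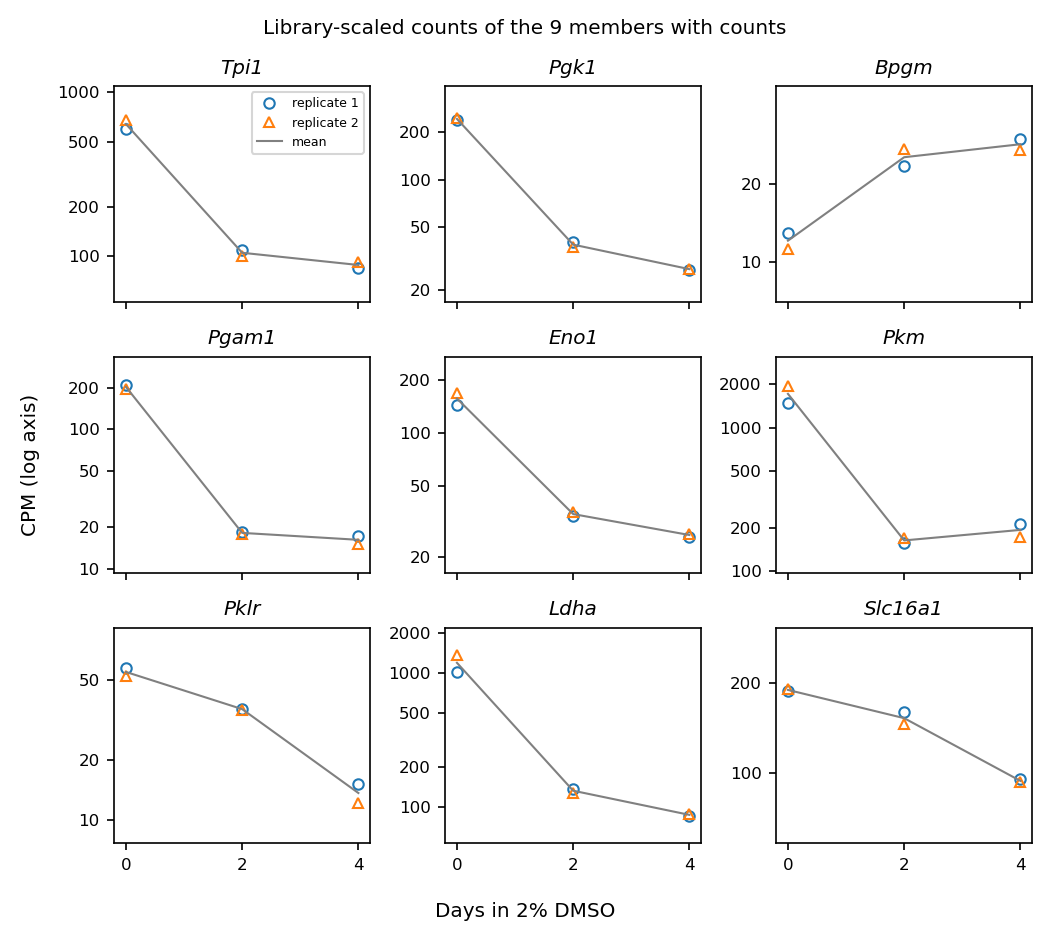
CPM of the 9 genes with counts (log axis, one panel per gene) against days in 2% DMSO, with one symbol per replicate library and a line through the day means. Tpi1, Pgk1, Pgam1, Eno1, Pkm and Ldha reach 83.7% to 108% of their 4-day log2 change by day 2, Pklr and Slc16a1 drop mostly after day 2, and Bpgm climbs from 12.1 to 28.4 CPM.

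Pgam1, phosphoglycerate mutase, had 207.8 and 196 CPM at day 0, 18.5 and 17.8 CPM at day 2, and 17.3 and 15.0 CPM at day 4. The day 0 libraries stood apart from the rest, and days 2 and 4 lay close together without overlapping. The log2 change was -3.48 ± 0.12 (SE, n = 2 per day) from day 0 to day 2, 11.1 times lower (adjusted p = 4.03e-08), the steepest of the 9 and rank 133 among the falls of the 12381 genes. From day 2 to day 4 the change was -0.17 ± 0.11 (adjusted p = 0.282).

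Pkm, the pyruvate kinase gene of most proliferating tissues, had 1489 and 1941 CPM at day 0, 157 and 172 CPM at day 2, and 214 and 175 CPM at day 4. The 2 day 0 cultures differed more from each other than those of any other day, yet both were far above the later libraries. Its log2 change by day 2 was -3.38 ± 0.17 (adjusted p = 1.56e-07), 10.4 times lower, and it then differed by 0.24 ± 0.16 between days 4 and 2 (adjusted p = 0.264). At day 4 it was 8.82 times lower than at day 0.

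Ldha, the lactate dehydrogenase subunit that favors lactate formation, had 1019 and 1366 CPM at day 0, 138 and 128 CPM at day 2, and 86.0 and 89.5 CPM at day 4. No library of one day overlapped those of another. The log2 change was -3.17 ± 0.16 by day 2 (adjusted p = 1.4e-07) and -3.76 ± 0.16 by day 4 (adjusted p = 1.89e-08), 13.6 times lower and the steepest fall of the 9 over 4 days (rank 221 of 12381). Its change from day 2 to day 4, -0.60 ± 0.15, was called (adjusted p = 0.0114) but lost the call whenever any single day 2 or day 4 library was left out (adjusted p = 0.0626 to 0.129).

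Tpi1, the triose phosphate isomerase, had 597 and 681 CPM at day 0, 109.8 and 101 CPM at day 2, and 84.6 and 92.8 CPM at day 4. Each day's libraries lay below those of the day before. It was 6.07 times lower at day 2 (log2 change -2.60 ± 0.13, adjusted p = 1.34e-07) and changed by -0.25 ± 0.12 after that (adjusted p = 0.143). This later change was called when day 0 was left out of the fit (adjusted p = 0.029) or either day 0 library was dropped (adjusted p = 0.0366 and 0.0368).

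Pgk1, phosphoglycerate kinase, had 241 and 246 CPM at day 0, 40.2 and 37.6 CPM at day 2, and 27.0 and 27.4 CPM at day 4. Its replicates were close on every day and the days did not overlap. The log2 change was -2.65 ± 0.11 by day 2 (adjusted p = 7.39e-08) and -0.52 ± 0.10 from day 2 to day 4 (adjusted p = 0.00403). The later call was lost without day 2 replicate 1 (adjusted p = 0.0763). Over 4 days Pgk1 became 8.96 times lower.

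Eno1, the ubiquitous enolase, had 145 and 169 CPM at day 0, 33.8 and 35.9 CPM at day 2, and 26.0 and 27.1 CPM at day 4. The days did not overlap. The fall of 4.5 times by day 2 (log2 change -2.17 ± 0.11, adjusted p = 1.81e-07) was the smallest among the 6 genes of this steep group. The later change of -0.39 ± 0.11 was called (adjusted p = 0.0227) but lost the call on leaving out any day 2 or day 4 library (adjusted p = 0.105 to 0.161). Eno1b, a near copy that shares 75.8% of the 30-base words of the Eno1 transcript, had 924, 953, 205, 199, 148 and 146 CPM in the same library order, and reads of the pair may be split between them. With the 2 genes summed, an alternative added after the data were seen, the number of genes called was the same in every comparison.

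Pklr, the pyruvate kinase gene of liver and red cells, had 57.7 and 52.6 CPM at day 0, 36.1 and 35.7 CPM at day 2, and 15.0 and 12.1 CPM at day 4. Unlike the genes above, it reached only 30.7% of its 4-day log2 change by day 2. The log2 change was -0.62 ± 0.13 by day 2 (adjusted p = 0.00138), -1.40 ± 0.13 from day 2 to day 4 (adjusted p = 0.000123) and -2.02 ± 0.13 in all (adjusted p = 2.62e-07). The later step ranked 256 among falls of the 12381 genes. On the opposite strand, exons of Hcn3 cover 18.7% of the exon bases of Pklr, and Hcn3 itself had 68 to 168 counts.

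Slc16a1, the lactate carrier, had 187 and 191 CPM at day 0, 159 and 145 CPM at day 2, and 95.0 and 92.8 CPM at day 4. It too fell mainly after day 2, with 31.1% of its log2 change reached by then. The step from day 2 to day 4 was -0.70 ± 0.11 (adjusted p = 0.00105), and the 4-day change was -1.01 ± 0.11 (adjusted p = 6.95e-06), 2.01 times lower. The first step, -0.31 ± 0.10 (adjusted p = 0.0216), lost its call without day 2 replicate 1 (adjusted p = 0.0583), without day 2 replicate 2 (0.201) and with library totals in place of TMM factors (-0.12, adjusted p = 0.364).

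Bpgm, the synthase and phosphatase of bisphosphoglycerate, had 12.9 and 11.2 CPM at day 0, 23.4 and 27.2 CPM at day 2, and 29.7 and 27.0 CPM at day 4. All libraries of days 2 and 4 lay above both day 0 libraries, while those of days 2 and 4 overlapped. The log2 change was 1.07 ± 0.13 by day 2 (adjusted p = 5.18e-05), 2.1 times higher, and 1.23 ± 0.13 by day 4 (adjusted p = 9.75e-06), 2.35 times higher. The change from day 2 to day 4 was 0.16 ± 0.13 (adjusted p = 0.364). Of tested genes, 11.2% were higher by at least 1 at day 2 and 16.8% at day 4.

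Ldhb, the other lactate dehydrogenase subunit, had 0 counts in all 6 libraries. With a floor of 3 counts per library this allowed at most 0.0464 to 0.0637 CPM per kb of transcript, and counting error only is covered. Its transcript shares 42.3% of its 30-base words with the gene copy Gm5514, and reads placed on such copies would not be counted for Ldhb.

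Between day 2 and day 4, 5 of the 9 genes were called lower (Pgk1, Eno1, Pklr, Ldha and Slc16a1), beside 16.2% of tested genes, with a median log2 change of -0.39 for the 9 and -0.00 for all tested genes. Only Pklr fell by at least 1, as 3.87% of tested genes did. The count fell to 2 without day 2 replicate 1, to 3 without day 2 replicate 2 or either day 4 library, and rose to 6 without either day 0 library. This comparison shares its day 2 libraries with the one before it. Libraries of days 2 and 4 did not overlap for 8 genes, Bpgm being the exception, and 7 of the 8 were lower (37.4% of tested genes were lower and 36.6% higher without overlap).

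**Figure D2:**
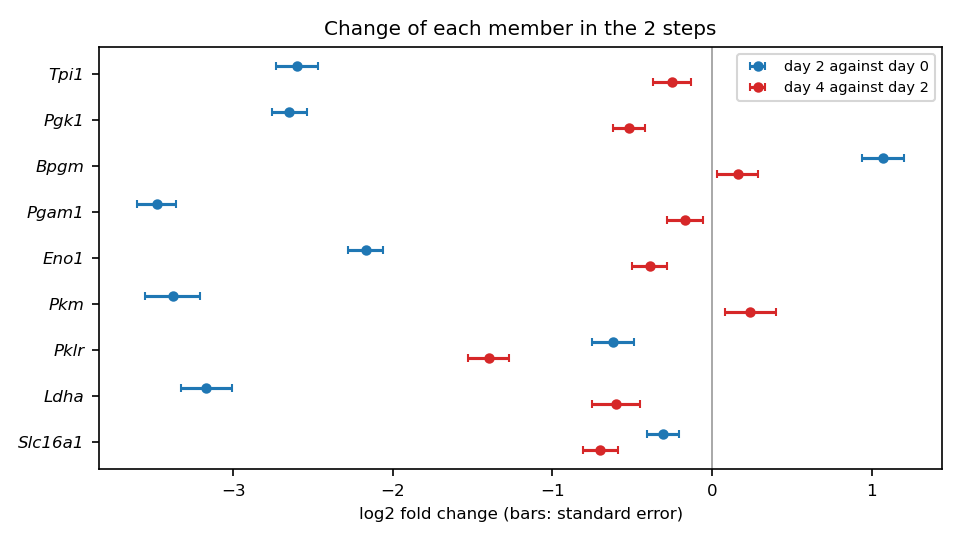
Log2 change with its standard error for each of the 9 genes with counts, from day 0 to day 2 and from day 2 to day 4. For Tpi1, Pgk1, Pgam1, Eno1, Pkm and Ldha the first step is far larger than the second, whereas for Pklr (-0.62, then -1.40) and Slc16a1 (-0.31, then -0.70) the second is larger.

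Levels of different genes were compared per kb of transcript. At day 0 the order was Pkm (mean 705 CPM per kb), Ldha (657), Tpi1 (398), Pgk1 (134), Pgam1 (114), Eno1 (77.4), Slc16a1 (42.7), Pklr (19.8) and Bpgm (5.44). Pkm and Ldha overlapped between replicates, and both stood among the highest of 12227 genes with a length (ranks 28 and 32). At day 4 the order was Pkm (80.0), Tpi1 (55.2), Ldha (48.3), Slc16a1 (21.2), Pgk1 (14.9), Eno1 (13.1), Bpgm (12.8), Pgam1 (9.10) and Pklr (4.88). Eno1 and Bpgm overlapped there. The place of enolase depends on the reads it shares with Eno1b. With both summed, a choice made after the data were seen, per kb of the Eno1 transcript, enolase had 540.4 ± 18.7 CPM per kb (SD, n = 2) at day 0, between Ldha and Tpi1, and 85.6 CPM per kb at day 4, where it overlapped Pkm. Slc16a1 lay above Pgk1 and Pgam1 at day 4 and below them at day 0, and Bpgm moved from rank 7256 to rank 4509 of 12227.

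Bpgm and Pgam1 belong to one enzyme family. The per-length ratio of Bpgm to Pgam1 was 0.0498 and 0.0459 at day 0, 1.01 and 1.22 at day 2, and 1.37 and 1.44 at day 4. In every library of days 2 and 4 the counted level of Bpgm was thus at or above that of Pgam1, and in both day 0 libraries far below it. Pgam1 shares 42.2% of its sequence words with the copy Pgam1-ps2 and Bpgm shares none, so Pgam1 reads may be split with the copy. Which of the pair was higher at days 2 and 4 is therefore uncertain, most of all at the ratio of 1.01. The ratio was 29.4 times higher at day 4 than at day 0, a log2 difference of 4.88 with a within-day SD of 0.125. The exact two-sided permutation test over the 6 libraries gave p = 0.0222 (adjusted over 2 ratios 0.0444), the smallest it allows with 90 arrangements. It rests on the same counts as the opposite changes of Bpgm and Pgam1 given above and is no separate support for them.

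The 2 pyruvate kinase genes did not exchange places. The per-length ratio of Pklr to Pkm was 0.0338 and 0.0237 at day 0, 0.201 and 0.181 at day 2, and 0.0613 and 0.0607 at day 4, so Pkm was the higher of the pair in every library. The ratio peaked at day 2, 6.74 times the day 0 value, and was lower at day 4. At day 2 Pkm was 10.4 times and Pklr 1.54 times lower than at day 0. At day 4 it was 2.16 times the day 0 value, a log2 difference of 1.11 with a within-day SD of 0.218, and the libraries of these days did not overlap. The exact permutation test over all 6 libraries gave p = 0.467 (adjusted 0.467), but it also moves the day 2 libraries, which lay above those of both other days, and so cannot judge this difference. With Ldhb at 0 counts no shift between the lactate dehydrogenase subunits could be measured. Ldhal6b, a further lactate dehydrogenase gene, had 0.161 to 0.582 CPM.

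**Figure D3:**
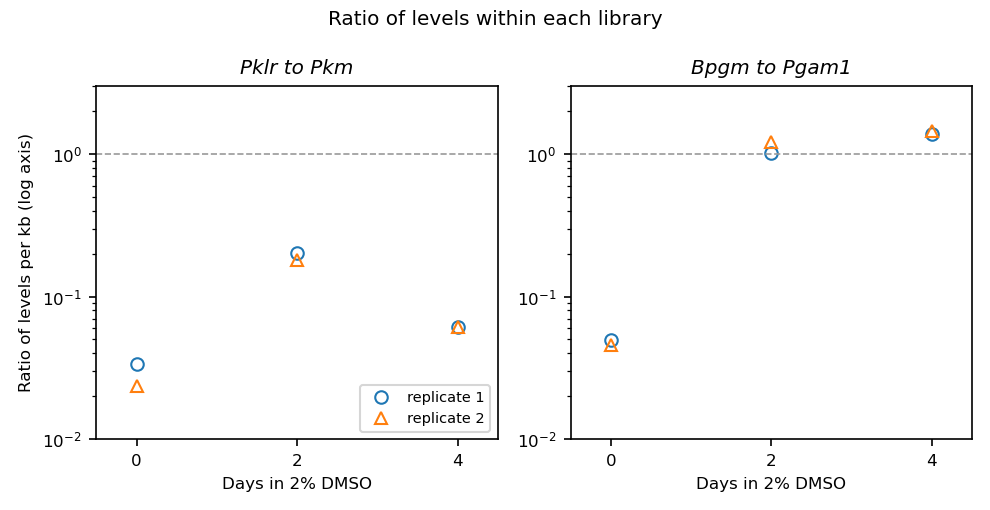
Per-length ratios of Bpgm to Pgam1 and of Pklr to Pkm (log axis) in each library against days in 2% DMSO. Bpgm to Pgam1 goes from 0.0459 and 0.0498 at day 0 to 1.37 and 1.44 at day 4, while Pklr to Pkm is highest at day 2 and Pkm remains above Pklr throughout.

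Pkm is known for a splice choice between the M1 and M2 forms, which differ by a single exon. The files hold both, and the M2 transcript (NM_011099) had 60749, 96343, 6554, 8436, 7737 and 7901 counts, from day 0 replicate 1 to day 4 replicate 2, while M1 (NM_001253883) had 59276, 90633, 6456, 8254, 7543 and 7698. The M2 count exceeded the M1 count by 1.5% to 5.93% of itself in every library. Such near-equal counts show that most reads were counted for both forms, and the files do not give the M2 share. The R and L transcripts of Pklr differed by 1 to 8 counts, and Ldha transcripts NM_001136069 and NM_010699 by 7 to 44 counts, so that their start sites were not separate measurements either.

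Several transcripts share words with other gene copies. Of 30-base words, Eno1 shared 77.5% (mostly with Eno1b), Pgk1 shared 68.3% (mostly with Pgk1-rs7), Pkm 52.1%, Pgam1 42.2% (with Pgam1-ps2), Ldha 35.0% and Tpi1 19.1% with transcripts of other genes, while Pklr shared 0.0725% and Bpgm and Slc16a1 none. The absolute level of the former group is therefore less certain than that of the latter.

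Glucose entry and upper glycolysis were mostly lower at day 4. Of 14 listed genes 11 were tested, and 9 of them were lower than at day 0 (36.4% of all tested genes were), among them Hk2, hexokinase 2 (log2 change -3.91, adjusted p = 1.24e-08), Slc2a1, the glucose carrier GLUT1 (-3.49, adjusted p = 1.66e-08), Aldoa, aldolase A (-2.14, adjusted p = 1.96e-06), and Gapdh (-1.94, adjusted p = 5.99e-06). The median of the 11 was -1.50, beside -0.02 for all tested genes. Pfkm, a phosphofructokinase, had 0.22 (adjusted p = 0.172) and Aldoc, aldolase C, 0.37 (adjusted p = 0.348). Of 10 other isoenzymes and copies of the glycolytic genes, 4 were tested and 2 were lower (36.4% of all tested genes were), Eno1b (-2.67, adjusted p = 2.14e-08) and Eno2 (-1.39, adjusted p = 2.33e-06), while Pgk2, Eno4, Ldhc and Gapdhs were at 0 counts.

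The carriers did not move together. Slc16a3 (MCT4), a lactate exporter, went from 141 and 149 CPM at day 0 to 25.6 and 26.9 CPM at day 2 and 21.1 and 23.4 CPM at day 4 (4-day log2 change -2.71 ± 0.11, adjusted p = 1.53e-08). Slc16a10, an aromatic amino acid carrier of the same family, went from 30.6 and 29.0 CPM to 78.6 and 99.0 CPM at day 4 (1.58 ± 0.13, adjusted p = 1.07e-06). Bsg, basigin, the chaperone of Slc16a1 and Slc16a3, had 0.37 ± 0.14 (adjusted p = 0.0334), and Slc16a6 0.26 (adjusted p = 0.0554). The other 3 of the 7 listed, Slc16a7, Slc16a8 and Emb, had no counts.

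Genes of pyruvate entry into mitochondria were called in both directions. Of 17 listed genes 16 were tested, and from day 0 to day 4, 5 were higher and 7 lower, with a median log2 change of -0.17. These shares lay near those of all tested genes (35.5% higher, 36.4% lower). Pdk2, a kinase that inhibits pyruvate dehydrogenase, had 4.95 and 4.98 CPM at day 0, 24.9 and 22.6 CPM at day 2, and 42.4 and 48.9 CPM at day 4, and the days did not overlap. Its log2 change was 3.20 ± 0.14 (adjusted p = 1.85e-08). Pdk1 and Pdk3, kinases of the same family, were lower: Pdk1 went from 61.3 and 61.1 CPM at day 0 to 37.7 and 40.0 CPM at day 4 (-0.65, adjusted p = 0.000147), and Pdk3 from 91.2 and 79.7 CPM to 58.3 and 59.3 CPM (-0.54, adjusted p = 0.00119). Pdp1, a phosphatase that reactivates the complex, and Pdpr, a regulatory subunit of that phosphatase, were higher at day 4 than at day 0. Their log2 changes were 1.23 (adjusted p = 0.000242) and 1.19 (adjusted p = 1.16e-05). Pdp1 went from 3.09 and 2.14 CPM at day 0 to 10.0 and 8.02 CPM at day 2. From day 2 to day 4 Pdp1 was called lower (-0.56, adjusted p = 0.0437). Pdha1, the E1 alpha subunit, fell by 0.85 on the log2 scale (adjusted p = 0.000101), and Gpt2, an alanine transaminase, by 1.44 (adjusted p = 1.11e-05).

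Both listed genes that remove related phosphates were lower at day 4 than at day 0, as were 36.4% of all tested genes. They were Minpp1, a phosphatase of bisphosphoglycerate (log2 change -0.56, adjusted p = 0.00361), and Pgp, which degrades phosphoglycolate (-1.04, adjusted p = 0.000882). The 4 splicing factors known for Pkm exon choice also fell (36.4% of all tested genes were lower): Ptbp1 (-1.67), Hnrnpa1 (-1.39), Hnrnpa2b1 (-1.36) and Srsf3 (-1.32), with adjusted p of at most 2.94e-05. No consequence for Pkm splicing can be read from the counts of its 2 transcripts.

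**Figure D4:**
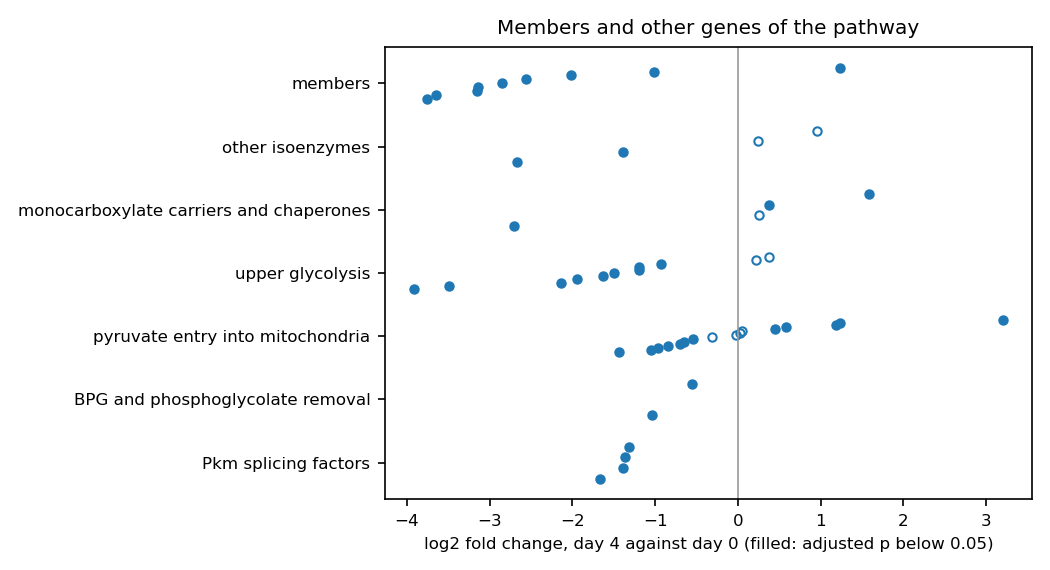
Log2 change from day 0 to day 4 for the tested genes of the pathway, by list. Lower glycolysis and upper glycolysis lie mostly below 0, Bpgm lies above it, and the genes of pyruvate entry lie on both sides, from Pdk2 at 3.20 to Gpt2 at -1.44.

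Likeness was measured as the distance between the pairs of log2 changes (day 0 to 2, and day 2 to 4), over 3865 genes that were called over 4 days and averaged 5 or more in log2 CPM. The genes nearest to Bpgm were Cert1, a ceramide carrier (distance 0.0200), Ro60, an RNA-binding protein (0.0247), and Klhl42 (0.0257). Nearest to Ldha were Spi1, the transcription factor PU.1 (0.145), Hk2 (0.206) and Ranbp1, a regulator of Ran (0.236). Nearest to Slc16a1 were Dsn1, a kinetochore protein (0.0338), Orc2, of the origin recognition complex (0.0417), and Dnajc9, a histone co-chaperone (0.0505). The distances rest on 6 libraries, and the steps share the day 2 libraries.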

How the data were processed

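The authors made stranded mRNA-seq libraries of the 6 cultures, removed adapters (cutadapt), and mapped reads to mm10 (TopHat). The deposited values are raw counts for each RefSeq transcript. The submitters' processing notes also name HTSeq and DESeq2, and the counting mode and use of strand are not given in the sources used here. Reads assigned to no feature were left out, and none were listed as ambiguous or as aligned more than once. Those left out made up 50.5% to 58.4% per library of their sum with the transcript counts, in which a read can count for several transcripts. Symbols were matched through RefSeq of GRCm38.p6 (32199 of 32654 transcripts) and GENCODE vM21 (187), and 268 transcripts had none. Transcript lengths and 30-base words, a word length set after sharing was first computed, came from GENCODE vM21.

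Counts were tested with edgeR 4.0.16 (R 4.3.3), using TMM factors, filterByExpr by day, which left 18351 transcripts, and a quasi-likelihood fit of all 6 libraries with 1 mean for each day. Benjamini-Hochberg adjustment ran over all transcripts tested with calls made at values under 0.05. Each SE was derived from the fold change and its F statistic. The script was tested on simulated counts. Ratios within a library were tested on log2 counts plus 0.5 by exact permutation of days. The Ldhb to Ldha ratio, also planned, could not be given since Ldhb was at 0. Alternatives were DESeq2 1.42.0, other scalings, no filter, a fit of 2 days, the replicate block, a minimum change and leaving out each library. All 10 genes are named, other genes by listed pathway groups and as the 3 nearest in change. The members and lists were chosen with earlier results of these data known.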

Additional observations from a re-analysis of the deposited data

How the results depend on the processing

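With DESeq2, RLE factors, no globin transcripts, no filter or the replicate block, 9, 5 and 9 members were called in the comparisons of day 2 with day 0, day 4 with day 2 and day 4 with day 0, as in the reported fit. Of 378 values of single genes, 363 kept their direction and side of the threshold, 12 lost their call, 3 gained one and 0 changed direction. For day 4 against day 2, requiring a log2 change of at least 1 left 1 member, and leaving out 1 library gave 2 to 6. Whether replicate numbers pair the cultures is not stated, and deviations of same-numbered libraries correlated at 0.032, 0.045 and 0.079. An exact permutation of days within replicate number, as a block, gave 4.88 for the Bpgm to Pgam1 ratio with p = 0.0556, the smallest it allows. The Pklr to Pkm log2 difference was 0.85 to 1.37 with 1 library left out, the extremes coming from day 0. Reads shared with gene copies limit the levels of Eno1, Pgk1, Pkm, Pgam1, Ldha and Tpi1.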
